A study of Dicentrarchus labrax with 8 samples.

Results

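Transcript levels of 7 regulators of the spindle checkpoint and of mitosis (ttk, bub3, mad2l1bp, aurkb, kif2c, cdc28 and ccnd2) were followed in the testis of European sea bass (Dicentrarchus labrax) in spermatogenic stages I and II. They were read from 8 targets of a custom one-colour Agilent oligonucleotide array that carries 11705 targets in all. Each symbol was paired with 1 target except kif2c, whose symbol stands beside 2 targets in the study's list of differentially expressed genes. Other targets of these genes on the array, outside that list, were not sought. The members were chosen by that list, which was drawn from the same contrast of stage II with stage I on the same arrays. Their stage differences and the counts of members within the call limits are therefore given as a description, with no p-value for any member, and nothing is supported with them.

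The samples were pools of testis RNA from several males taken around normal puberty, and no treatment, strain or genotype is given in the labels. Stage I is the immature testis, in which the germ cells are type A spermatogonia. Stage II is the proliferative testis, in which type B spermatogonia fill many cysts beside the type A cells and primary spermatocytes are scarce. There were 3 pools per stage, hybridised on plates numbered 36 and 37. Plate 36 held the 3 stage I pools and plate 37 the 3 stage II pools, and pool 3 of each stage was repeated on the opposite plate, which gave 8 arrays. The repeated arrays were averaged, so n = 3 pools per stage. Because the RNA is from testis tissue of mixed cells, a change in the number of cells of a type and a change in RNA per cell cannot be told apart.

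The spindle assembly checkpoint holds a dividing cell in metaphase until every kinetochore is attached to spindle microtubules. The kinase TTK (Mps1) starts the signal at unattached kinetochores, the adaptor BUB3 brings checkpoint kinases to the kinetochore scaffold, and the MAD2-binding protein encoded by mad2l1bp (p31comet) helps to take the inhibitory complex apart once chromosomes are aligned. Aurora B, the enzymatic core of the chromosomal passenger complex, corrects wrong attachments, and the microtubule depolymerase KIF2C (MCAK) is one of its substrates. These roles were worked out mainly in yeast and in human and other vertebrate cells, and were not examined in sea bass here. In the testis, spermatogonia multiply by mitosis before their daughters enter meiosis.

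The identity of cdc28 on the array is not certain. The study's list describes its target, SeabassC-CL1073Contig1, as a cdc28 protein kinase, with annotation terms both for kinase activity and for the regulation of cyclin-dependent kinases. CDC28 is the name of the cell cycle kinase of budding yeast, and whether the sea bass target is a kinase or a regulatory subunit is not settled here. The supplied RefSeq gene table for sea bass (assembly dlabrax2021) holds 1 gene each named ttk, bub3, mad2l1bp, aurkb and kif2c, so 5 of 7 symbols matched. It holds 0 genes named cdc28 and 0 named ccnd2, and 1 gene each named ccnd2a, cdk1, cks1b and cks2. The array's own target names matched 0 entries, so no gene position is given. The primers with which the study amplified by qPCR the transcript it named cdc28 are shown. They were not matched to the array target, whose sequence was not supplied. They are written 5′ to 3′ in lower case, with no part marked.
cdc28 forward primer: gaggaagagtggaggggact
cdc28 reverse primer: cctttgggagaggtcttctg

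Levels are log2 signals with the 75th percentile of the array set at 0, so that a value of -1 lies 1 log2 unit below that percentile. They can be compared between samples for the same target, but not between targets. Of the 8 member targets, 7 had all 48 of their spot readings (3 probes, 6 spots, 8 arrays) well above background, and none of those spots was marked as an outlier. The second kif2c target was near background and did not enter the test. In all 7 tested targets every stage II pool lay above every stage I pool, as did 22.2% of the 8991 targets tested over the array. Of the 7, 4 were called higher in stage II (limma, adjusted p below 0.01, more than 2-fold), against 1.7% of all targets. Because the members were selected on this contrast, nothing is read from either count.

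The array of stage II pool 1 stood apart, with 60.2% of its spots well above background against 75.8 to 86.7% on the other 7 arrays. Markers of the tissue were sought by symbol only in the study's list of differentially expressed genes. A marker that did not differ could not be found there. Of the 26 symbols sought, 6 were listed: amh of Sertoli cells, sycp2, syce1 and dmc1 of spermatocytes, and pcna and mcm3 of dividing cells. The spermatocyte markers sycp2, syce1 and dmc1 were higher in stage II by 1.31, 1.83 and 1.71 on the log2 scale. The dividing cell markers pcna and mcm3 were higher by 1.51 and 1.26. The Sertoli cell marker amh was lower, with a difference of -1.19. All 6 were called, while over the array 153 targets were called higher and 536 lower of 8991 tested. All 6 had been listed by the study on the same arrays, so nothing is read from this count. Their part in the differences of the members was not tested.

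**Figure D1:**
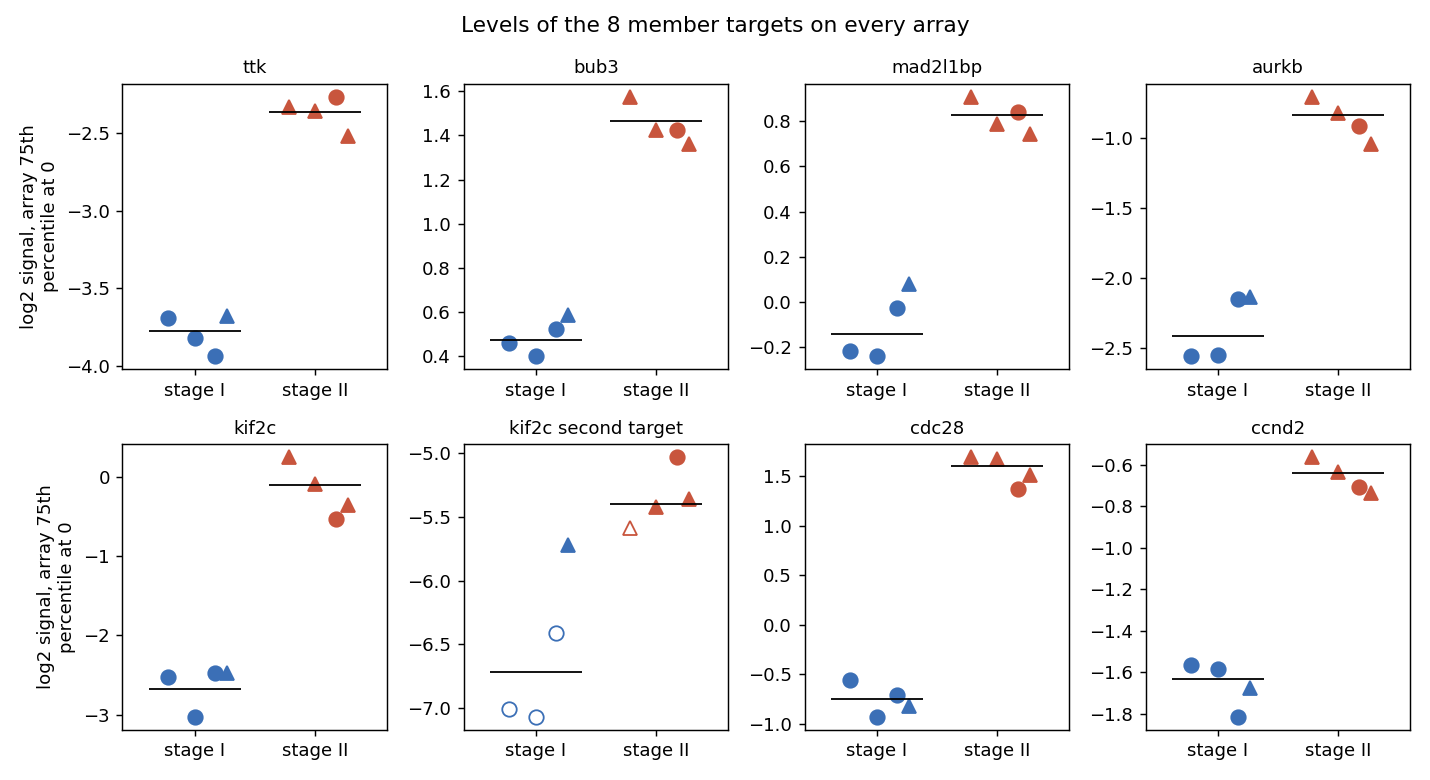
Levels of the 8 member targets (log2 signal with the array's 75th percentile at 0; each panel has its own axis) at stage I (blue) and stage II (red). Each point is an array, circles on plate 36 and triangles on plate 37, with pools 1, 2 and 3 from left to right and pool 3 shown on both plates, lines are the means of 3 pools, and open symbols are arrays on which no spot of the second kif2c target was well above background. In the 7 other panels every stage II array lies above every stage I array.

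The kinase gene ttk (target cDN23P0006O10.F.ab1) was higher in every stage II pool. Its log2 level was -3.69, -3.82 and -3.81 in stage I pools 1, 2 and 3 and -2.33, -2.36 and -2.40 in stage II pools 1, 2 and 3. The pools of a stage differed little, and a wide gap separated the stages. The stage II mean of -2.36 ± 0.03 (SD, n = 3) exceeded the stage I mean of -3.77 ± 0.07 (SD, n = 3) by 1.41 ± 0.08 (SE), a fold change of 2.66.

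The adaptor gene bub3 (SeabassC-CL366Contig1) showed a smaller difference. Its log2 level was 0.46, 0.40 and 0.55 in the stage I pools and 1.58, 1.43 and 1.39 in the stage II pools. The highest stage I pool lay 0.84 below the lowest stage II pool. The difference of the means was 0.99 ± 0.09 (SE), or 1.99-fold.

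The checkpoint-silencing gene mad2l1bp (cDN25P0001B15.F.ab1) had log2 levels of -0.22, -0.24 and 0.03 in stage I and of 0.91, 0.79 and 0.79 in stage II. Stage I pool 3 was the highest of its stage and still 0.76 below the lowest stage II pool. The stage means of -0.14 ± 0.15 and 0.83 ± 0.07 (SD, n = 3 each) differed by 0.97 ± 0.10 (SE), or 1.96-fold.

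The passenger complex kinase aurkb (cDN23P0006E09.F.ab1) was more variable within stage I. Its log2 level was -2.56 and -2.55 in stage I pools 1 and 2 and -2.14 in pool 3, against -0.70, -0.82 and -0.98 in the stage II pools. Stage I pool 3 was read at -2.15 and -2.13 on its repeated arrays, so the distance of this pool from the others was present on both plates. The difference between stages was 1.59 ± 0.14 (SE), a fold change of 3.0.

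The first target paired with the symbol kif2c, cDN27P0002G13.F.ab1 (kif2c in the text and figures), had the highest fold change of the set. Its log2 level was -2.52, -3.02 and -2.47 in the stage I pools and 0.24, -0.10 and -0.45 in the stage II pools. This target also had the widest spread between pools among the 7 tested members, with an SD of 0.30 in stage I and 0.34 in stage II. The stage means differed by 2.57 ± 0.22 (SE), or 5.95-fold, which placed it at rank 3 of 8991 targets by size of rise. The study's list pairs this target with the symbol kif2c but describes the sequence as a kinesin-2 family member. Whether it reads the microtubule depolymerase gene is therefore not settled here.

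The second kif2c target, cDN23P0002C20.F.ab1, is the one the study's list describes as kinesin family member 2c, and it was barely measurable. Of its 48 spot readings 13 were well above background, 1 of them a spot marked as an outlier, and all 6 spots were so on only 1 array, that of stage II pool 3 on plate 36. No spot was well above background in stage I pools 1 and 2, on the plate 36 array of stage I pool 3, or in stage II pool 1. The log2 level was -7.01, -7.07 and -6.06 in the stage I pools and -5.59, -5.42 and -5.19 in the stage II pools.

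For the second kif2c target the repeated arrays of stage I pool 3 differed by 0.70 between plates, more than any other member did in either stage. On stage II pool 3, plate 37, 1 spot was marked as an outlier at -1.91 while the remaining 5 lay between -5.54 and -5.11. With that spot kept, an alternative added after the data were seen, the level of stage II pool 3 was -4.90 instead of -5.19. No stage difference or call is given for this target, because most of its readings were not well above background. The table of gene names holds 1 kif2c gene, so the relation of the pair of targets to each other could not be settled.

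The target named cdc28 was the most distinct between stages after kif2c. Its log2 level was -0.56, -0.93 and -0.77 in the stage I pools and 1.69, 1.68 and 1.44 in the stage II pools. The lowest stage II pool lay 2.00 above the highest stage I pool. The difference was 2.36 ± 0.13 (SE), or 5.12-fold, rank 7 of 8991 by size of rise.

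The gene ccnd2 encodes a D-type cyclin, a partner of the kinases that carry cells through G1, and so acts before the spindle forms. Its log2 level was -1.56, -1.59 and -1.74 in the stage I pools and -0.56, -0.63 and -0.72 in the stage II pools. Pool 3 was the lowest of its stage in both. The difference was 0.99 ± 0.09 (SE), or 1.99-fold.

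The fold change limit of 2 thus ran through the set. The nearest member inside it was ttk at 2.66-fold, a log2 difference of 1.41 ± 0.08 (SE). Just outside it lay bub3 and ccnd2 at 1.99-fold each and mad2l1bp at 1.96-fold, all of which the study had listed. The SE of these 3 targets, between 0.09 and 0.10 on the log2 scale, was wider than their distance from a log2 difference of 1. The median difference of the 7 tested members was 1.41, and the median over all 8991 tested targets was -0.13.

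**Figure D2:**
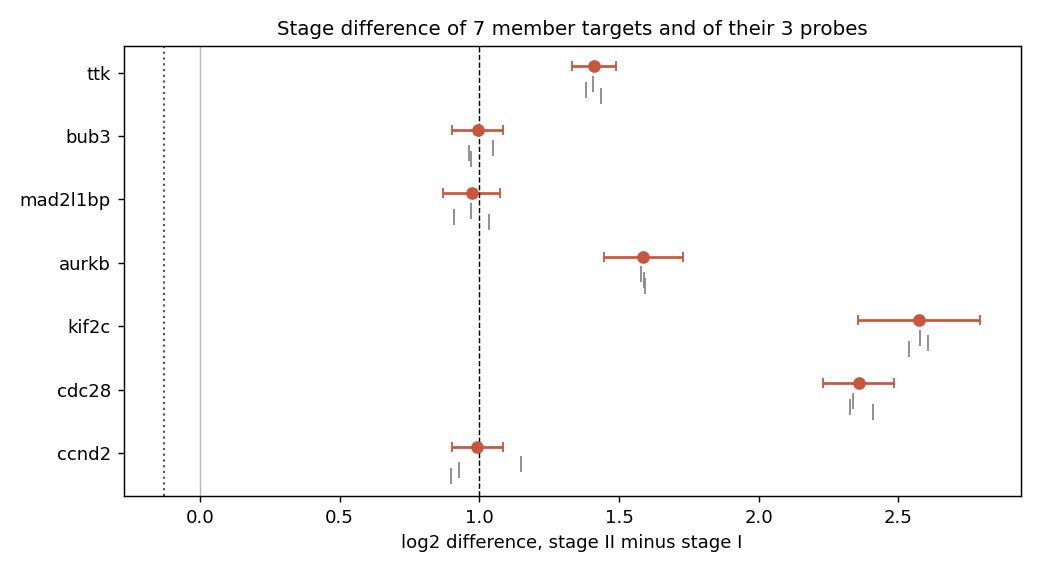
Difference of 7 member targets between stages (log2, stage II minus stage I), with the SE from limma as bars and the 3 probes of each target as grey ticks. The dashed line marks a fold change of 2, and the dotted line marks the median of all targets (-0.13), and the second kif2c target is not shown; bub3, mad2l1bp and ccnd2 lie on the dashed line, and kif2c and cdc28 lie farthest from it.

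The separate probes of a target gave nearly the same stage difference. The 3 aurkb probes differed by only 0.01 (1.58 to 1.59), those of ttk by 0.05 (1.38 to 1.43), those of kif2c by 0.07 (2.54 to 2.61) and those of cdc28 by 0.08 (2.33 to 2.41). The probes of ccnd2 were the least alike of the tested members, at 0.90 to 1.15. For bub3, mad2l1bp and ccnd2 the limit of 2-fold fell between probes of the same target, since 1 probe of each exceeded a log2 difference of 1. The same oligonucleotide was printed on a pair of spots, which differed by a median of 0.05 to 0.09 over the tested members. Wider gaps were 0.94 for a kif2c probe on the plate 37 array of stage I pool 3 and 0.94 for a cdc28 probe in stage II pool 1, where the spots were read at 1.49 and 2.43.

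Within stage II the members shared an order of the pools. Pool 1 was the highest for 7 of 7 tested members, and pool 3 was the lowest for 6 of 7, the exception being mad2l1bp at 0.79 in both pool 2 and pool 3. This order was not particular to them. Of the 149 other targets called higher in stage II, 83.2% were highest in pool 1 and 79.2% were lowest in pool 3, against 31.1% and 26.8% of all 8984 tested targets other than the members. The same shares of both sets lowest in pool 3 were 87.9% and 41.3% with median scaling and 82.6% and 32.7% with quantile normalization. The mean deviation of the members from their stage II mean was 0.12 in pool 1, 0.00 in pool 2 and -0.13 in pool 3. Pool 1 is also the array with the lowest share of spots above background, and the part of this in the order was not tested.

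Within stage I the members did not share a highest pool. Pool 1 was the highest for 3 members and pool 3 for 4, and pool 2 was the lowest for 5. The mean deviation of the members in pool 2 was -0.12, and the share of other targets lowest there was not computed. The genes mad2l1bp and aurkb were highest in pool 3, at 0.17 and 0.27 above their stage means, whereas ccnd2 was lowest there. After the stage means were taken out, Pearson's r over the 6 pools ranged from -0.47 to 0.95 in the 21 pairs of members, with a median of 0.47, and 17 pairs were above 0. The closest pairs were mad2l1bp with aurkb (0.95), ttk with cdc28 (0.90) and bub3 with kif2c (0.89), and the farthest was mad2l1bp with ccnd2 (-0.47). These are descriptions over few pools that share their arrays and scaling. The median SD between pools was 0.15 in stage I and 0.10 in stage II for the members, and 0.11 and 0.14 for all tested targets. The stage II value of the members was 0.16 with median scaling and 0.06 without pool 1. That of all targets was not computed in these settings, so the members cannot be set against it there.

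**Figure D3:**
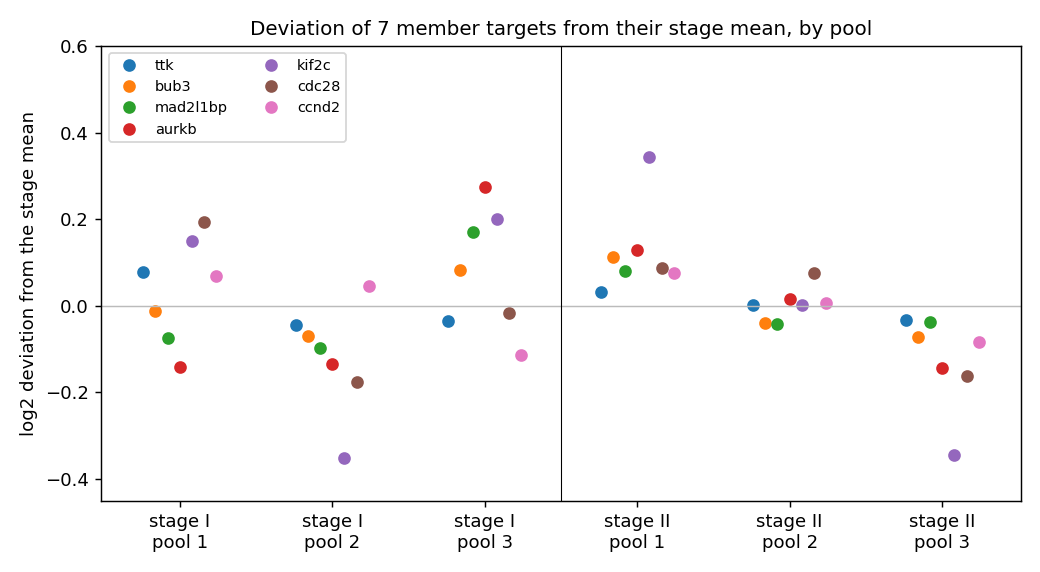
Deviation of 7 member targets from the mean of their stage (log2) in each of the 6 pools, a colour per gene. In stage II all points of pool 1 lie above 0 and all points of pool 3 below it, while in stage I the genes scatter to both sides in pools 1 and 3.

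A plate term could be fitted beside the stage because both plates carried pool 3 of either stage. The other pools of each stage were on a single plate, so the stage contrast that chose the members was partly a plate contrast. The plate values are therefore not free of that choice. None of the 7 members was called for a plate difference under the same limits (limma with terms for stage and for plate, pools as random blocks, adjusted p between 0.865 and 0.999), and 0% of the 8991 targets were. At an unadjusted p under 0.05 there were 0 of the 7 members and 665 of the 8991 targets. Neither count sets the 7 members apart from the array. The largest fitted plate difference was that of kif2c, 0.14 higher on plate 37 (95% interval -0.13 to 0.40). The interval for ttk ran from -0.23 to 0.23 and that for bub3 from -0.11 to 0.15.

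Read directly, repeated arrays of pool 3 differed by at most 0.26 for any tested member. That value was reached by ttk, which was 0.26 higher on plate 37 in the stage I pool and 0.26 lower on plate 37 in the stage II pool. Over all targets the difference between repeated arrays had an SD of 0.22 in stage I and 0.16 in stage II. Comparing stages within a plate, with 1 stage on a single array each time, the difference of ttk was 1.55 on plate 36 and 1.27 on plate 37, and that of aurkb was 1.51 and 1.28. For kif2c it was 2.14 and 2.40, and for cdc28 2.10 and 2.45. The remaining members lay between 0.73 and 1.03 on either plate.

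**Figure D4:**
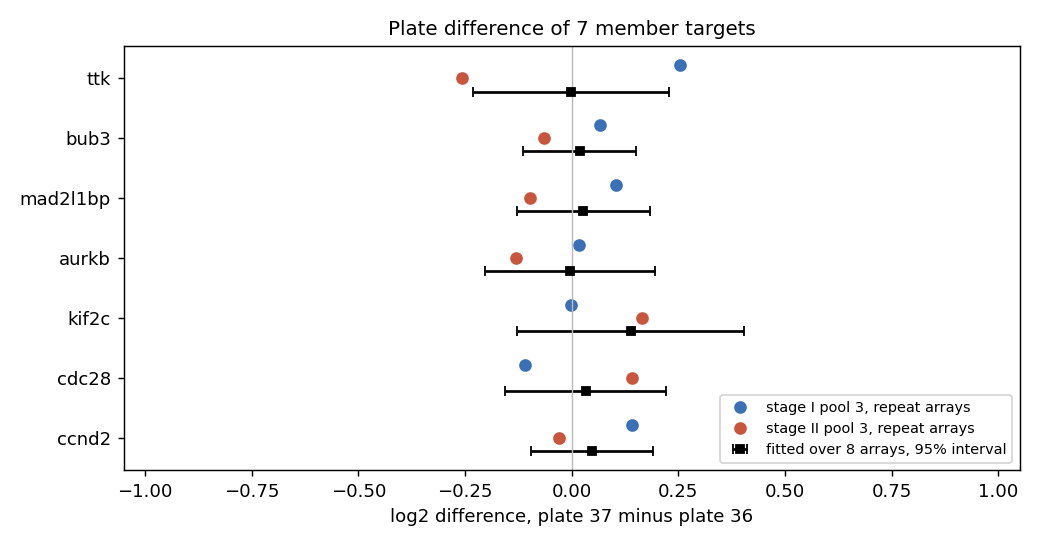
Difference between plates (log2, plate 37 minus plate 36) of 7 member targets. Blue and red points are the repeated arrays of pool 3 of stage I and of stage II, and black squares are the values fitted over 8 arrays with their 95% intervals, all of which include 0.

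Partners of the members in mitosis were taken from a list of 38 symbols. They were sought only in the study's list of differentially expressed genes, which names 18 of them, on 19 targets. A partner that did not differ could not be found there. That list was chosen on the same arrays, so the count of partners called is not independent evidence. Of the 18 targets tested, 17 were called higher in stage II, against 1.7% of all targets, none was called lower, and the median difference was 1.23 against -0.13 over all targets. With normexp background correction 4 were called, and with the methods' t-test after Benjamini-Hochberg adjustment 6. Over the array 44 and 37 targets were called higher in these settings, against 153 as reported. The exception among the 18 was cenpi, a protein of the inner kinetochore, at 0.87 ± 0.12 (SE). The condensin subunit gene ncapg was not tested because its probes were not well above background on every array of a stage. Both were named after their values were seen.

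The 3 partners of the checkpoint itself that the study's list names were called higher, and each had been listed on the same contrast. Other checkpoint genes sought, such as bub1 and mad2l1, are not in that list and were not read. Whether the array carries targets for them was not examined. The gene casc5 (KNL1), the scaffold on which TTK and BUB3 act, was at 0.37, 0.11 and 0.07 in the stage I pools and at 1.64, 1.43 and 1.14 in the stage II pools, a difference of 1.22 ± 0.15 (SE). The gene kntc1, which encodes the Rod subunit of the complex that brings MAD1 and MAD2 to kinetochores, differed by 1.65 ± 0.13 (SE). The gene trip13, whose ATPase works with the mad2l1bp product in mammalian cells, was at -2.99, -2.92 and -2.78 in stage I and at -0.82, -1.13 and -1.26 in stage II, a difference of 1.83 ± 0.13 (SE). As in the members, stage II pool 3 was the lowest of its stage for these 3 genes, as it was for 15 of the 18 tested partners. This was not particular to them, since 79.2% of the 149 targets called higher, members left out, were lowest there.

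Genes of other steps showed the same direction. The centriole kinase gene plk4 differed by 1.16 ± 0.13 (SE), the cytokinesis genes anln, an actin-binding scaffold, and ect2, an activator of RhoA, by 1.34 ± 0.12 and 1.14 ± 0.10, and both targets of the spindle pole gene aspm by 1.96 ± 0.14 and 1.91 ± 0.17. All of these were called.

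The targets whose pattern over the 6 pools was most like the mean of the 7 members were nup37, a nucleoporin gene whose product also sits at kinetochores (r = 0.9998), uhrf2, which encodes a ubiquitin ligase that binds methylated DNA (r = 0.9994), the unnamed targets cDN33P0004A19.F.ab1 and cDN26P0003J16.F.ab1 (r = 0.9991 and 0.9990) and ect2 (r = 0.9989). Their stage differences ran from 0.44 to 2.06. An r above 0.95 was reached by 8.73% of the 8984 other targets. The profile contains the stage difference by which the members were chosen.

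Other settings were tried for each member, and 16 of them (scalings, backgrounds, averaging of probes, use of the arrays, plate and left-out pools) could give another stage difference. It stayed above 0 in each of these for the 7 members. It stayed above a log2 difference of 1 in all 16 for aurkb, kif2c and cdc28 and in 15 for ttk, where normexp background correction gave 0.67. It was above 1 in 5 settings for bub3, 4 for mad2l1bp and 9 for ccnd2. The scaling, the signal used and the filter on dim probes also moved the balance of calls over the array. With 75th percentile scaling 153 targets were called higher and 536 lower in stage II, with median scaling 260 and 389, and with quantile normalization 214 and 325, each on the processed signal. The deposited log2 values, which are another signal, gave 118 and 243 when shifted to the 75th percentile and 702 and 54 when left unscaled.

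**Figure D5:**
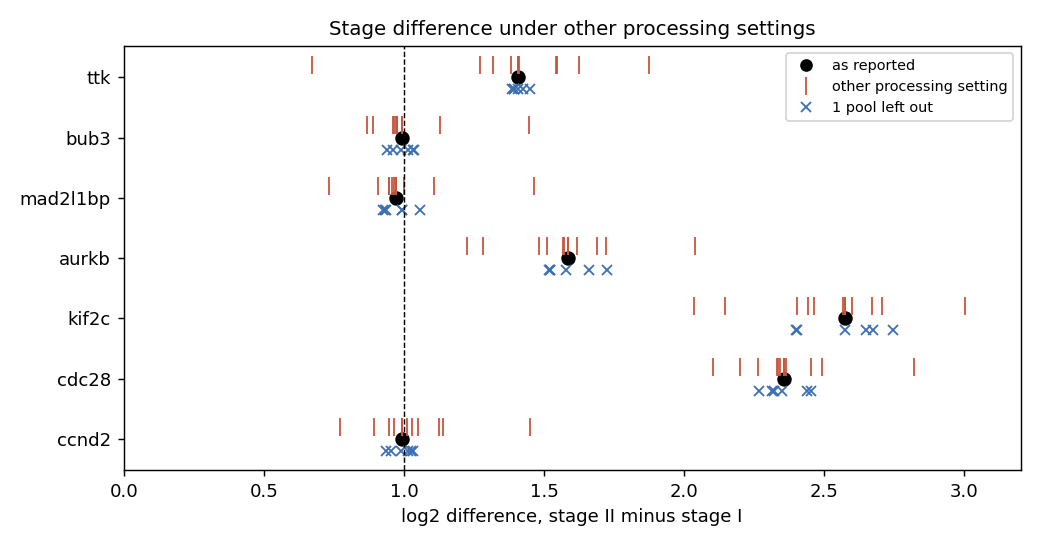
Difference of 7 member targets between stages (log2, stage II minus stage I) as reported (black), under other processing settings (red ticks) and with 1 pool left out (blue crosses). The dashed line marks a fold change of 2; the values of bub3, mad2l1bp and ccnd2 fall on both sides of it, and those of aurkb, kif2c and cdc28 all lie above it.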

How the data were processed

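Testis RNA pools were labelled with Cy3 and hybridised to one-colour arrays. The authors deposited scanner files of spot intensity, background-subtracted and detrended by Agilent Feature Extraction (version 10.4 in the submitters' processing notes, 10.7.3.1 in the file headers), and a table of log2 values that equals the log2 of the background-subtracted signal, without scaling between arrays. Here log2 processed signals were shifted to the 75th percentile of the non-control spots of each array, outlier spots were left out, and spots and then every probe of a target were averaged. A target was kept if 1 or more of its probes had, on every array of 1 stage or the other, a spot well above background, and 8991 targets with a value in every pool were tested. Stages were compared with limma 3.58.1 in R 4.3.3 (lmFit, eBayes, Benjamini-Hochberg), without a block, and a call required an adjusted p below 0.01 and more than 2-fold change. The number of arrays limits the precision. Per the study's methods, the pools were made from different fish and served as biological replicates.

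Symbols were paired with targets through the study's gene list, from which no value was taken, and its fold changes and p-values were not used. The genes named are the member targets, the markers, 8 partner targets (casc5, kntc1, trip13, plk4, anln, ect2 and both of aspm) in an order set for that list, and the 5 targets most like the mean member profile. The members and lists were chosen with earlier results of these data known. The fitting steps were checked on simulated data. Scaling, background, filter, probe, plate, test and pool alternatives were tried, and a search for promoter motifs was not done here. Deposited short tables that repeat the scanner files were not used.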

Additional observations from a re-analysis of the deposited data

How the results depend on the processing

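Each member kept its direction, higher in stage II, under every alternative run that could change its value. The counts of calls moved. The count of members called, 4 as reported, was 7 with the median of each array, 7 with the deposited log2 values without scaling, 1 (cdc28) with normexp background correction, and 2 (ttk and cdc28) with the methods' t-test after Benjamini-Hochberg adjustment. Targets called higher over the whole array were 153 as reported and 260, 702, 44 and 37 in the same order of settings. With normexp and the adjusted t-test, kif2c and aurkb lost their calls by the adjusted p. Their differences stayed above 1 (2.03 and 1.23 with normexp, 2.57 and 1.59 with the t-test), whereas ttk was at 0.67 with normexp. The median difference of the members, 1.41 as reported, was 1.54, 1.63, 1.87 and 0.98 with the median of each array, quantile normalization, the unscaled deposited values and normexp, and 1.27 within plate 37. The normexp setting used the median spot and background signals in place of the processed signal, and it added an offset of 50. The part of each in the lower differences was not tested, nor were causes in the other settings. Partner targets called, 17 as reported, were 4 with normexp and 6 with the adjusted methods' t-test. Without adjustment, the methods' t-test called 4 members and 17 partners, and 152 targets higher over the array. The median difference of all targets, -0.13, was 0.01 with median scaling and 0.33 with the unscaled deposited values.

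With 1 pool left out, the members called ranged from 4 to 6, their median difference from 1.39 to 1.45 and the partners called from 12 to 17. Targets called higher over the array ranged from 108 to 204. The count of members was 6 without stage I pool 3 (bub3 and mad2l1bp added) and without stage II pool 3 (bub3 and ccnd2 added). It was 4 without stage II pool 1. Stage II pool 3 was the lowest of its stage for 6 members as reported, 7 with median scaling and 6 with quantile normalization. Leaving out pool 1, the highest for 7 of 7, could not change this count. The median SD of the members in stage II, 0.10, was 0.16 with median scaling and 0.06 without pool 1. Over all targets the calls, 689 as reported, ranged from 85 (adjusted methods' t-test) to 756 (deposited log2 values without scaling) and from 236 to 848 with 1 pool left out. They were 361 with the deposited values shifted to the 75th percentile.

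Pool numbers did not pair the samples: deviations of pools of the same number correlated at -0.04, -0.01 and -0.07. With the pool number as a replicate block, 4 members and 15 partners were called, and 419 of all targets. No member was called for a plate difference with median scaling, quantile normalization or only passing probes. Signal over background limits the second kif2c target, and 3 pools per stage limit the precision of every difference.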
